A study of Rattus norvegicus with 6 samples.

Results

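The genes described here are 10 members of the machinery that burns fatty acids and of its transcriptional control, chosen by symbol: Cpt1a, Cpt2, Acadl, Acadm, Acadvl, Hadha, Hadhb, Ppara, Ppard and Pdk4. All 10 were listed among the 17771 genes of the count table, and 9 had enough counts to be tested. RNA was sequenced in bulk from corneas of Wistar rats grafted with the cornea of a Sprague-Dawley (SD) donor. In 3 libraries the recipients had been injected into the peritoneum each day with resveratrol, a polyphenol found in grapes, and in the other 3, called control, with saline, up to day 7. Both groups had been grafted, so the comparison is of treatment within grafted corneas and holds no ungrafted tissue. The labels do not say whether libraries came from separate animals or from pooled corneas. Each p-value sets a group difference against the spread between these libraries, and that spread may therefore be technical.

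Long-chain fatty acids reach the mitochondrial matrix through the carnitine shuttle, in which CPT1 on the outer membrane makes acylcarnitine and CPT2 on the inner membrane turns it back into acyl-CoA. Acyl-CoA dehydrogenases of different chain-length preference then start each round of beta-oxidation, and the trifunctional protein, built from HADHA and HADHB, carries out the later steps on long chains. PPAR receptors bind fatty acids and their derivatives, pair with RXR on DNA and switch on many of these genes, and PDK4 holds back pyruvate dehydrogenase, which favours fatty acids over glucose as fuel. The corneal epithelium is known for its use of glucose supplied from the aqueous humour.

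Hadha and Hadhb, the subunit genes of the trifunctional protein, are neighbours in the RefSeq annotation of the rat assembly GRCr8 and lie head to head on chromosome 6. Their promoter windows, which run from 250 bases before to 50 bases after each start, are shown because they share 200 bases and the levels of both genes are compared further on. The shared stretch, chr6:31907551-31907750, is in capitals and reads as the reverse complement between the windows, Hadha being on the plus strand (chr6:31907551-31907850) and Hadhb on the minus strand (chr6:31907451-31907750).
Hadha: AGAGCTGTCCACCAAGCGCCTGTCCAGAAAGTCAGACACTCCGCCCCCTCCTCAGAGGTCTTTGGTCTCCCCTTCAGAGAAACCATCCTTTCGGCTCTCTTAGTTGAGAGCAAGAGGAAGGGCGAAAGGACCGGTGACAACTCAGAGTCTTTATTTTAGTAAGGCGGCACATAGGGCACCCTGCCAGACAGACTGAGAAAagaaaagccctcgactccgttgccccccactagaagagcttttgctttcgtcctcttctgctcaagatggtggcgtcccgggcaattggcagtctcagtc
Hadhb: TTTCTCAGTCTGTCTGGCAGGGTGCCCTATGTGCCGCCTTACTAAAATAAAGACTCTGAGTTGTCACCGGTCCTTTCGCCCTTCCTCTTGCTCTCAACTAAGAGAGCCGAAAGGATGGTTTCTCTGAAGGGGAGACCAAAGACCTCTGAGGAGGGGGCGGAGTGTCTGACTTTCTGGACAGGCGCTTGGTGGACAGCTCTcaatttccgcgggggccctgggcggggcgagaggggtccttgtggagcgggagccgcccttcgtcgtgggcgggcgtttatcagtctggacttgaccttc
The window of Acadvl, on the minus strand at chr10:55236656-55236955, is shown for its matches to AGGTCA, the half-site that PPAR and other nuclear receptors recognise, which stand in capitals.
Acadvl: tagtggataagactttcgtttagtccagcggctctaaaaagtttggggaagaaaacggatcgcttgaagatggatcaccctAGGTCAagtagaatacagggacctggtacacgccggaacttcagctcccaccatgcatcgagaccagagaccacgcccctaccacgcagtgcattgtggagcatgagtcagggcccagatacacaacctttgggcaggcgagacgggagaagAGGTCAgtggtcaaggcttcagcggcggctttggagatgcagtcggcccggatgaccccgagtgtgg
RefSeq windows were found for 8 of the 10 members, and AGGTCA, searched on both strands, occurred in 2 of them, against 16.2% of all 33469 windows. Acadvl held it at bases 82 and 234 of its window, counted from the 5′ end, and Hadhb at base 293 on the opposite strand. The direct repeat AGGTCANAGGTCA, the layout of a PPAR and RXR site, had no match in the 8 windows and occurred in 0.0538% of all windows. Only exact matches were counted. After its half-site at base 234 the Acadvl window reads gtggtca, the layout of this repeat but with t as the first letter of the second half-site. A match is a description of letters, and no match says only that these letters are not in this window.

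Total gene counts were 35068936 to 37460756 per library, so depth was even. Levels are given in CPM, counts scaled to library size with TMM factors, to follow a gene across libraries, and in the authors' FPKM, which is per gene length, to compare genes. Krt12, which encodes a keratin of the corneal epithelium, lay at 31838 to 37566 CPM in resveratrol and 33048 to 35194 CPM in control, and Kera, a proteoglycan of keratocytes, at 125 to 247 CPM in resveratrol and 166 to 282 CPM in control, so markers of the labelled tissue were present. The summed level of 9 corneal epithelial markers was 83092 to 96417 CPM in resveratrol and 83994 to 91874 CPM in control. Within that list Klf4 was at 710 to 821 CPM in resveratrol and 609 to 679 CPM in control. Tp63 was at 224 to 359 CPM in resveratrol and 200 to 218 CPM in control. The other epithelial markers, Krt12, Krt5, Krt14, Pax6, Aldh3a1, Klf5 and Cdh1, each overlapped. The 5 corneal endothelium markers summed to 814 to 1386 CPM in resveratrol and 814 to 991 CPM in control, with overlap. The 5 conjunctiva markers summed to 7825 to 11688 CPM in resveratrol and 9370 to 11869 CPM in control, with overlap. The part of conjunctiva in any level was not tested. Summed levels of the stromal, blood vessel and T cell lists, and of the skeletal muscle list given further on, were lower in resveratrol without overlap. The 7 stromal markers summed to 7215 to 9941 CPM in resveratrol and 10259 to 14593 CPM in control, the 6 blood vessel markers to 231 to 291 CPM in resveratrol and 347 to 553 CPM in control, and the 8 T cell markers to 17.2 to 28 CPM in resveratrol and 30.7 to 61.4 CPM in control. In the stromal list Col1a1 was at 2693 to 4540 CPM in resveratrol and 5030 to 9242 CPM in control. Col5a1 was at 349 to 519 CPM in resveratrol and 520 to 1052 CPM in control. The other stromal markers, Kera, Lum, Dcn, Aldh1a1 and Ptgds, each overlapped between the groups. Cd4 was the largest part of the T cell sum in every library. It was at 13.1 to 20.1 CPM in resveratrol and 20.9 to 41 CPM in control. Cd3e, Cd3d, Cd2, Cd5 and Lck were each lower in resveratrol without overlap, and Cd3g and Cd8a overlapped. The 10 macrophage markers summed to 368 to 547 CPM in resveratrol and 488 to 943 CPM in control, with overlap. Within that list Cd68, Csf1r, Adgre1, C1qa and Aif1 were each lower in resveratrol without overlap. Cd163, Mrc1, Cd14, C1qb and Lyz2 overlapped. Log2 fold changes below 0 were fitted for 6 of 6 tested stromal, 6 of 6 vessel, 7 of 7 T cell and 8 of 10 macrophage markers. They were fitted for 2 of 9 tested corneal epithelial markers, and no marker passed in edgeR. The part of these shifts in any value below was not tested. In bulk tissue a change in the number of cells of a type and in RNA per cell cannot be told apart.

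The 7 enzyme genes of fatty acid oxidation and Ppard were expressed in every library, Ppara and Pdk4 were near the lower limit of the counts, and no member passed the test between the groups. By the quasi-likelihood test of edgeR, 0 of the 9 tested members had an adjusted p under 0.05 (smallest adjusted p = 0.237), where 0% of the 14213 tested genes passed, and DESeq2, run as an alternative, called 0 members against 6.87% of 14666 genes. At an unadjusted p under 0.05 edgeR gave 2 of 9, Hadha with a lower mean in resveratrol and Ppard with a higher one, where 19.6% of all tested genes did so, 11.7% with a lower and 7.84% with a higher level. Log2 fold changes ran from -0.28 to 0.20 (median -0.19), against a median of -0.0080 over all tested genes, and 7 of 9 were below 0, against 51.2% of all tested genes. For 3 of the 9 (Acadvl and Hadha lower, Ppard higher) the CPM of the groups did not overlap, which held for 26.5% of all tested genes, 14.4% lower and 12.2% higher.

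**Figure D1:**
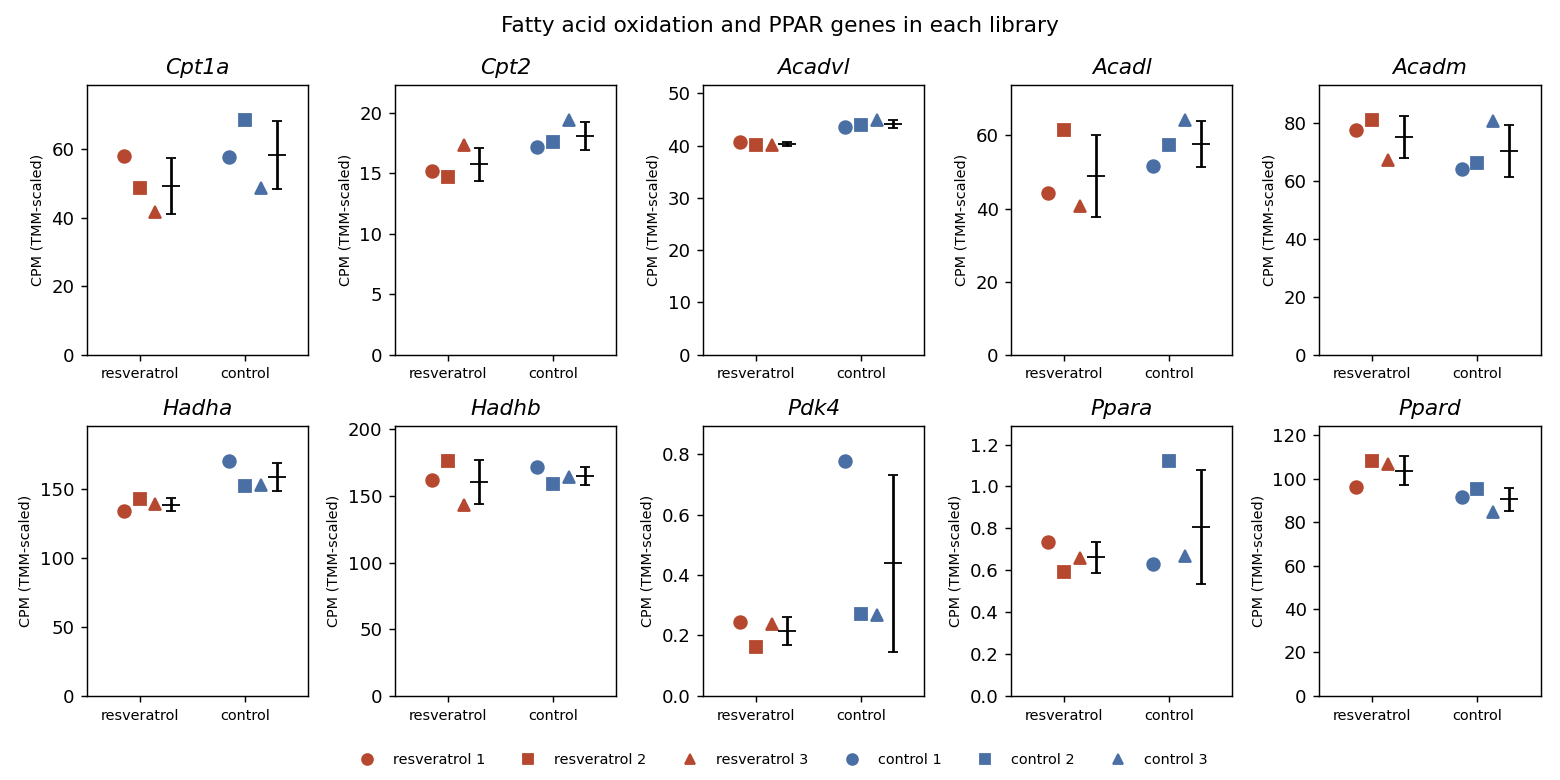
Level of each member in CPM (y axes, from 0) in the 3 resveratrol and 3 control libraries; points are libraries, with the mean and SD beside each group. Acadvl, Hadha and Ppard separate by narrow margins, Pdk4 rests on few counts with control 1 at 0.776 CPM, and the other members overlap.

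Per gene length, the members spanned a wide range. Mean FPKM over the 6 libraries was 65.8 for Hadhb and 59.1 for Hadha, then 37.3 for Acadm, 36.6 for Acadl and 19.7 for Acadvl. Ppard followed at 13.2, Cpt1a at 11.2 and Cpt2 at 7.31 FPKM, whereas Pdk4 was at 0.229 and Ppara at 0.0782 FPKM. Hadhb lay above 94.3% of the listed genes in FPKM, and Ppara above 18.7%. The ranges over the 6 libraries overlapped between Hadhb and Hadha, between Acadm and Acadl, between Ppard and Cpt1a and between Pdk4 and Ppara, while the ranges of the other neighbours were separate. Within each library, Hadhb was above Hadha and Pdk4 above Ppara in 6 of 6, Ppard above Cpt1a in 5 and Acadm above Acadl in 2, so only for Hadhb with Hadha and Pdk4 with Ppara was the order the same in every library despite overlapping ranges. The widest step between neighbours lay between Cpt2 and Pdk4, at 32.0-fold.

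In the carnitine shuttle, Cpt1a, the liver-type CPT1, was at 57.9, 48.6 and 41.6 CPM in resveratrol libraries 1, 2 and 3, against 57.8, 68.5 and 48.7 CPM in control libraries 1, 2 and 3. The groups overlapped, with control 2 highest and resveratrol 3 lowest. The log2 fold change was -0.24 ± 0.16 (standard error from limma) with an edgeR adjusted p of 0.435. Limma's 95% interval for the ratio of resveratrol to control was 0.654 to 1.10. Cpt2, the inner membrane enzyme, was at 15.2, 14.7 and 17.3 CPM in resveratrol and 17.2, 17.6 and 19.4 CPM in control (-0.20 ± 0.11, edgeR adjusted p = 0.359). Resveratrol 3 was just above control 1, so these groups touched.

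The CPT1 family was dominated by Cpt1a, which took 91.1%, 91.1% and 89.1% of the summed FPKM of Cpt1a, Cpt1b and Cpt1c in resveratrol libraries 1, 2 and 3, and 88.0%, 90.8% and 88.4% in control. The minor forms diverged. Cpt1b, the muscle form, was at 1.04, 0.993 and 0.895 CPM in resveratrol against 0.374, 0.571 and 0.295 CPM in control, on 34 to 38 counts in resveratrol and 11 to 21 in control (log2 fold change 1.23 ± 0.34, edgeR adjusted p = 0.157, DESeq2 0.0869). Cpt1c, known from neurons, was at 2.59, 2.07 and 2.37 CPM in resveratrol against 4.66, 3.86 and 3.78 CPM in control (-0.81 ± 0.19, edgeR adjusted p = 0.127, DESeq2 0.0168). DESeq2 called Cpt1c in 1 of 6 fits that left out a library (without resveratrol 1), and gave an adjusted p of 0.135 with the replicate block and 0.274 on the Oct libraries. Neither pair of groups overlapped, yet neither gene passed in edgeR, and Cpt1b was called by edgeR's likelihood ratio test alone among all fits made. Of 7 listed skeletal muscle markers, 2 were tested, and the list summed to 1.97 to 2.15 CPM in resveratrol and 2.84 to 3.59 CPM in control. Its largest part, Tnnt3, overlapped, at 1.26 to 1.45 CPM in resveratrol and 1.41 to 2.44 CPM in control. Myh2 and Myh4 had at most 3 counts in every library, and the part of muscle in Cpt1b was not tested.

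**Figure D2:**
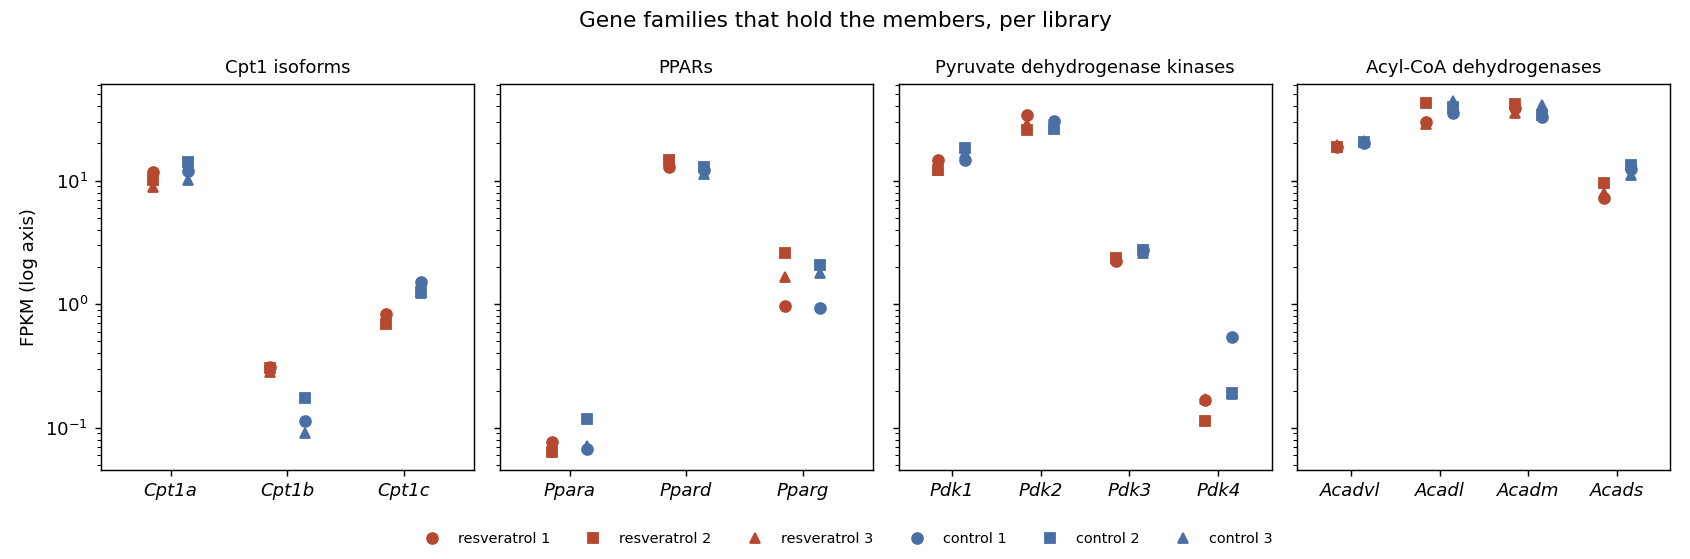
FPKM (log axis) of the members beside their relatives in each library, resveratrol left of control. Cpt1a, Ppard and the acyl-CoA dehydrogenases lie well above Cpt1b, Ppara and Pdk4. In FPKM the groups part for Cpt1b, Cpt1c and Acads, and by narrower margins for Acadvl, Pdk1, Pdk3 and Pdk4. In CPM the groups of Pdk1 overlap.

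The acyl-CoA dehydrogenases open the beta-oxidation cycle. Acadvl, for very long chains, was at 40.7, 40.1 and 40.2 CPM in resveratrol and 43.5, 44.0 and 44.9 CPM in control. All control libraries were above all resveratrol libraries, and the spread was small (means 40.3 ± 0.293 and 44.1 ± 0.700 CPM, SD, n = 3 each). Its log2 fold change was -0.13 ± 0.070 (edgeR adjusted p = 0.335), and limma's 95% interval for the ratio was 0.817 to 1.02. A pseudogene of Acadvl is listed in RefSeq, and whether reads it shares with Acadvl were split between them is not known here, so the value of Acadvl is uncertain to that extent. Acadl, for long chains, was at 44.2, 61.6 and 40.7 CPM in resveratrol and 51.5, 57.4 and 64.2 CPM in control (-0.24 ± 0.16, edgeR adjusted p = 0.451). Its groups overlapped through resveratrol 2, and without that library its adjusted p in DESeq2 was 0.0911, the smallest that any member reached in the alternatives. Acadm, for medium chains, was at 77.8, 81.1 and 67.2 CPM in resveratrol and 64.3, 66.1 and 80.7 CPM in control (0.10 ± 0.12, edgeR adjusted p = 0.665), and overlapped through control 3.

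Shares within the 4 dehydrogenases of straight chains are a description. Acadm took 41.3%, 37% and 38.7% of the summed FPKM of Acadvl, Acadl, Acadm and Acads in resveratrol, against 32.6%, 31.6% and 35.1% in control, with no overlap, although the level of Acadm itself overlapped between the groups. Acads, the short-chain enzyme and not a member, took 7.63%, 8.46% and 8.72% in resveratrol against 12.3%, 12.4% and 9.48% in control. The shares add to a fixed sum, so they are not independent, and they were not tested, since an exact permutation test of 3 against 3 libraries cannot go below 0.1. Acadvl kept 16.7% to 21.1% and Acadl 31.5% to 37.8% over all libraries, and both overlapped between the groups.

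The trifunctional protein is built from both subunits that follow. Hadha, the alpha subunit with the hydratase and dehydrogenase activities, was at 134, 143 and 139 CPM in resveratrol and 170, 152 and 153 CPM in control. The groups did not overlap, and control 1 stood highest. The log2 fold change was -0.19 ± 0.074 (unadjusted p = 0.0401, edgeR adjusted p = 0.237), and limma's 95% interval for the ratio was 0.778 to 0.988. Hadhb, the beta subunit with the thiolase, was at 162, 176 and 143 CPM in resveratrol and 172, 159 and 164 CPM in control, with resveratrol libraries both the highest and the lowest (-0.039 ± 0.091, edgeR adjusted p = 0.848). The interval of its ratio was 0.837 to 1.13. The ratio of Hadha to Hadhb in FPKM was 0.814, 0.798 and 0.957 in resveratrol against 0.971, 0.942 and 0.923 in control, and thus overlapped through resveratrol 3.

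Among the receptors, Ppard, which encodes PPAR delta, was the form that these corneas expressed most. It was at 96.2, 108 and 107 CPM in resveratrol and 91.8, 95.1 and 84.7 CPM in control. All resveratrol libraries were above all control libraries, with resveratrol 1 and control 2 closest. The log2 fold change was 0.20 ± 0.082 (unadjusted p = 0.0474, edgeR adjusted p = 0.251, DESeq2 0.208). Limma's 95% interval of the log2 difference was 0.006 to 0.39. Ppara, which encodes PPAR alpha, had 22 to 27 counts per library in resveratrol and 22 to 41 in control. That gave 0.737, 0.591 and 0.658 CPM in resveratrol and 0.632, 1.12 and 0.670 CPM in control (-0.28 ± 0.33, edgeR adjusted p = 0.691), and the interval of the ratio was wide, from 0.499 to 1.47. Control 2 was its highest library and the groups overlapped. Ppard took 84.8% to 92.5% of the FPKM of the PPAR genes over all libraries, Pparg 6.98% to 14.8% and Ppara 0.365% to 0.790%, with overlap between the groups for each. Pparg, a regulator of fat cells and macrophages, was at 2.35, 6.12 and 3.87 CPM in resveratrol and 2.24, 4.98 and 4.29 CPM in control.

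Pdk4, an often used readout of PPAR activity, was barely present. It had 9, 6 and 9 counts in resveratrol and 27, 10 and 10 in control, and was left out of the test by the filter on low counts. The groups did not overlap, though resveratrol 1 and 3 had 1 count fewer than control 2 and 3, and control 1 supplied 27 of the 47 control counts. With no filter edgeR gave a log2 fold change of -1.01 (unadjusted p = 0.127, adjusted p = 0.434). Pdk2 carried 55.0% to 66.5% of the FPKM of the PDK family over all libraries and Pdk1 27.8% to 38.9%, against 0.284% to 1.12% for Pdk4. Pdk1, a kinase that hypoxia factors induce, was at 32.8, 26.6 and 26.0 CPM in resveratrol and 32.7, 41.0 and 36.9 CPM in control (-0.37 ± 0.13, edgeR adjusted p = 0.189).

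**Figure D3:**
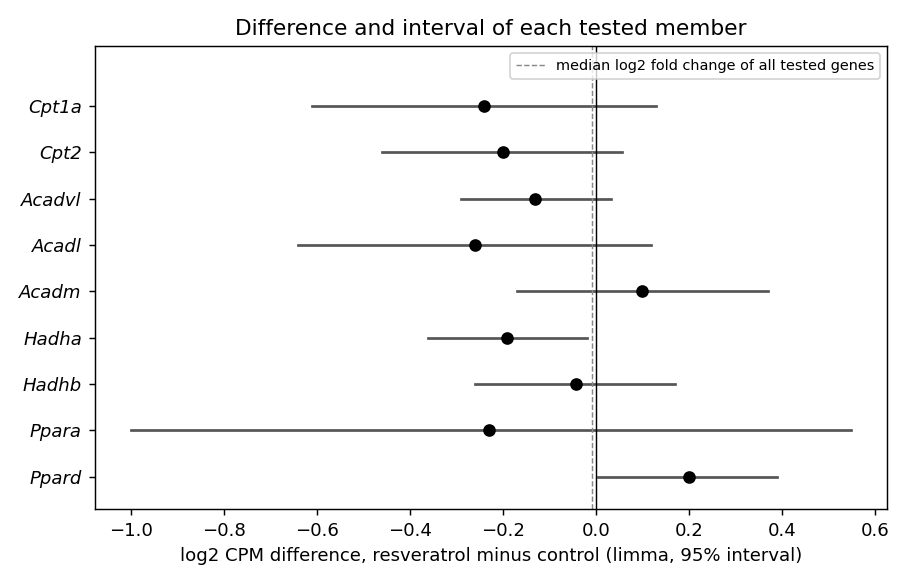
Difference in log2 CPM between resveratrol and control for the 9 tested members (points) with limma's 95% interval (lines); the dashed line is the median of all tested genes. Intervals are unadjusted; those of Hadha and Ppard leave out 0 by a small margin and that of Ppara is the widest.

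No library was high or low for all members. Among the resveratrol libraries, resveratrol 2 was highest for 5 of the 9 tested members and lowest for 3, and among the control libraries control 1 was lowest for 5 and highest for 2. The sample descriptions end in Sep for library 1 of each group and in Oct for the other libraries, with no stated meaning. The difference in log2 of CPM plus 0.05 had the same sign in the Sep pair and in the Oct libraries for 7 of 9 members. It was -0.34 and -0.11 for Hadha, 0.066 and 0.26 for Ppard and -0.10 and -0.15 for Acadvl, for Sep and Oct in that order. For Cpt1a it was 0.0023 in Sep and -0.36 in Oct, and for Ppara 0.21 and -0.44. The Sep libraries are 1 per group and allow no test, and in the Oct libraries alone edgeR's adjusted p was 0.295 or more for every tested member.

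The wider pathway was taken from 9 lists of 91 genes, of which 84 were listed and 76 tested. None of the 76 passed in edgeR (smallest adjusted p = 0.106), and 22 had an unadjusted p under 0.05, 15 lower and 7 higher, where 19.6% of all tested genes did, 11.7% lower and 7.84% higher. DESeq2 called 8, with 6 lower (Cpt1c, Fabp4, Slc27a1, Acads, Eci1 and Eci2) and 2 higher (Acaca and Ppargc1b), where 4.64% of all genes with a DESeq2 adjusted p were called lower and 2.23% higher. Of these 8, Acaca was called in 6 of 6 DESeq2 fits that left out a library, Eci1 and Ppargc1b in 5, Slc27a1 and Acads in 2, Cpt1c and Fabp4 in 1 and Eci2 in 0. Acaca, Eci1 and Acads were also called with the replicate block, and Acaca and Slc27a1 on the Oct libraries alone. Of the 76 genes, 50 had a log2 fold change below 0, a larger share than the 51.2% of all tested genes, and the lists were not tested as sets.

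Mitochondrial beta-oxidation genes outside the members had log2 fold changes below 0 in 14 of 15 (median -0.16), where 51.2% of all tested genes were below 0. None passed in edgeR, and DESeq2 called 3, all lower, where it called 4.64% of all genes lower. Eci1, an isomerase needed for unsaturated chains, was at 11.6, 11 and 10.1 CPM in resveratrol and 16.9, 17.5 and 14.4 CPM in control (-0.58 ± 0.12, edgeR adjusted p = 0.116, DESeq2 0.00457, but 0.0875 without control 2 and 0.115 on the Oct libraries). Acads was at 12.9, 16.6 and 13.6 CPM in resveratrol and 21.8, 23.3 and 19.5 CPM in control (-0.59 ± 0.13, edgeR adjusted p = 0.121, DESeq2 0.00894). The DESeq2 call of Acads was lost without resveratrol 1 or 3 (0.0764 and 0.066), without control 1 or 2 (0.056 and 0.119) and on the Oct libraries (0.213). Control libraries were above resveratrol libraries without overlap for both. Etfa and Etfb, the electron acceptor of the dehydrogenases and the most abundant genes of this list, differed by -0.0044 ± 0.11 and -0.14 ± 0.084. Of the 9 tested peroxisomal genes 8 were below 0 (median -0.080) and DESeq2 called 0, with Scp2, a thiolase and sterol carrier, at -0.074 ± 0.078 and Hsd17b4, a bifunctional enzyme, at -0.080 ± 0.084. The 5 ketone body genes were all below 0 (median -0.16), DESeq2 called 0, and Oxct1 and Acat1, which use ketone bodies, differed by -0.16 ± 0.11 and -0.067 ± 0.085.

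Of the 6 other carnitine shuttle genes 3 had a log2 fold change below 0 (median -0.092), and of the 10 tested genes of uptake and activation 5 did (median -0.10). Slc25a20, the carrier of acylcarnitine, was at 31.8, 32.3 and 28.6 CPM in resveratrol and 35.5, 40.2 and 35.3 CPM in control (-0.26 ± 0.094, edgeR adjusted p = 0.202). Crat, which handles short acyl groups, differed by -0.19 ± 0.090. Acsl1, which activates long-chain fatty acids, was at 371, 305 and 225 CPM in resveratrol and 240, 218 and 201 CPM in control (0.45 ± 0.17, edgeR adjusted p = 0.225), and overlapped through resveratrol 3. DESeq2 called it without that library (adjusted p = 0.00129) and with the replicate block (0.0331). Fabp5, a fatty acid carrier of epithelia, was at 320 to 376 CPM in resveratrol and 278 to 564 CPM in control (-0.28 ± 0.23, edgeR adjusted p = 0.541). Its log2 fold change was -0.021 without control 2 and -0.50 without control 1, where DESeq2 called it (adjusted p = 0.0368) and edgeR did not (0.208). Fabp4, a carrier of fat cells, macrophages and capillary endothelium that was named after its values were seen, was at 0.819, 1.23 and 1.11 CPM in resveratrol and 3.25, 1.33 and 4.02 CPM in control (-1.44 ± 0.42, edgeR adjusted p = 0.158, DESeq2 0.0338, called again by DESeq2 only without control 2). Beside it, the vessel sum was lower in resveratrol without overlap. The macrophage sum overlapped, although some of its markers, such as Cd68 and Csf1r, were lower without overlap. The fat cell markers Adipoq, Plin1, Cidec and Ucp1 had at most 3 counts in every library. The part of vessel cells, macrophages and fat cells in Fabp4 was not tested.

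Acaca, the acetyl-CoA carboxylase whose product malonyl-CoA inhibits CPT1, had the smallest p-value of the wider pathway. It was at 92.2, 74.4 and 77.1 CPM in resveratrol and 60.9, 49.6 and 53.5 CPM in control, without overlap (0.57 ± 0.11, edgeR adjusted p = 0.106, DESeq2 0.00124). Acacb, the other carboxylase, named after its values were seen, was lower without overlap, at 0.792, 0.779 and 0.527 CPM in resveratrol and 1.52, 1.41 and 1.39 CPM in control, on 20 to 29 counts in resveratrol and 52 to 53 in control (-1.04 ± 0.28, edgeR adjusted p = 0.148, DESeq2 0.0665). Mlycd, which removes malonyl-CoA, differed by 0.0019 ± 0.10. Among the partners of PPAR, 7 of 12 were above 0 (median 0.059). Ppargc1b, a coactivator of PPAR and ERR receptors, was at 6.58, 5.07 and 5.48 CPM in resveratrol and 2.70, 3.76 and 2.76 CPM in control (0.89 ± 0.20, edgeR adjusted p = 0.124, DESeq2 0.00518). The DESeq2 call was lost without resveratrol 1 (0.0754), with the replicate block (0.063) and on the Oct libraries (0.27). Ppargc1a, its relative, was at 0.188 to 0.300 CPM in resveratrol and 0.188 to 0.345 CPM in control. Rxra, the partner receptor, differed by 0.16 ± 0.080.

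Of the 20 genes listed as PPAR targets, 15 were listed in the count table and 11 tested, with 8 below 0 (median -0.15), 0 called by DESeq2 and 0 by edgeR. Ucp2, an uncoupling protein that leukocytes also express, was at 17.0, 25.0 and 34.3 CPM in resveratrol and 46.5, 37.5 and 41.5 CPM in control (-0.72 ± 0.24, edgeR adjusted p = 0.176), and DESeq2 called it without resveratrol 3 (adjusted p = 0.000500) and with the replicate block (0.0396). The T cell sum, with Cd4 as its largest part, was lower in resveratrol without overlap. The macrophage sum overlapped, although some of its markers, such as Cd68 and Csf1r, were lower without overlap. The part of these cells in Ucp2 was not tested. In the pyruvate dehydrogenase list 6 of 10 were above 0 (median 0.075), with Pdha1, the catalytic subunit, at -0.022 ± 0.065 and Pdk2 at 0.065 ± 0.12.

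**Figure D4:**
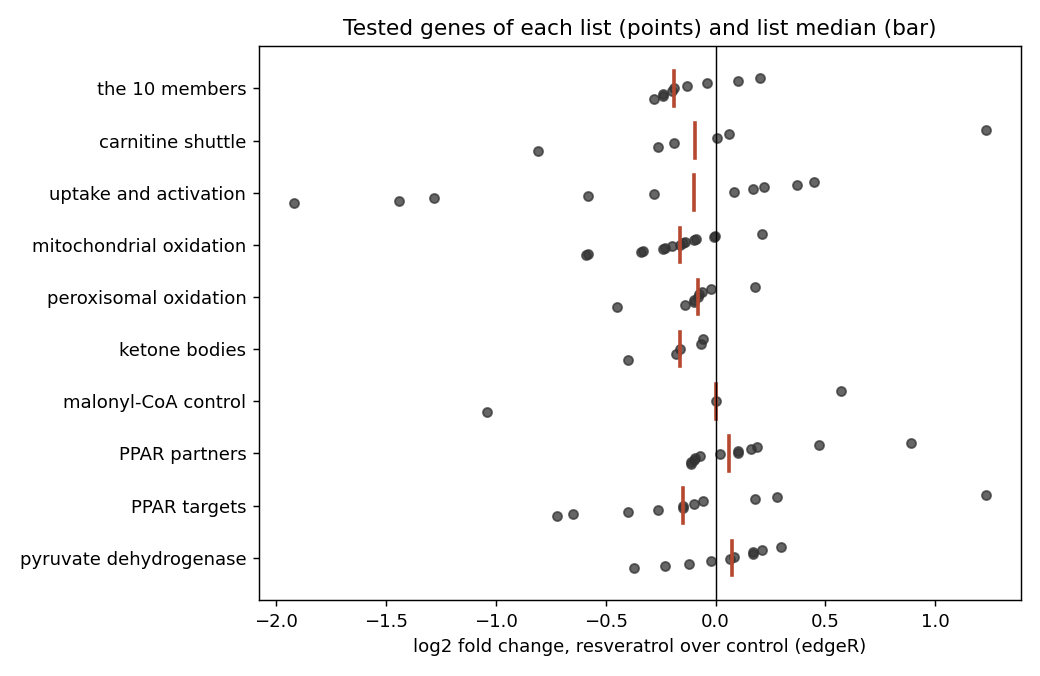
Log2 fold change, resveratrol over control (x axis), of every tested gene in the members and in each of the 9 pathway lists; the bar is the list median. The members lie between -0.28 and 0.20, and the mitochondrial list has 14 of 15 genes below 0.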

How the data were processed

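Libraries of cornea RNA were read from both ends on an Illumina NovaSeq, per the labels' protocols. The authors deposited a table of raw gene counts (whole numbers) and one of FPKM, both covering 17771 genes, per the file headers; 6 of 6 single-library FPKM files equalled the FPKM table. The build mRatBN7.2 and the tools R 3.2.0 and DESeq2 stand in the submitters' processing notes, without a role. No aligner, counter, annotation or strand setting is named in the sources used here. A separator missing from the count header was settled by name and by the ratio of count to FPKM.

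Counts were filtered with filterByExpr, which left 14213 genes and dropped 0.0237% of counts, scaled by TMM and tested with edgeR 4.0.16 (glmQLFit, glmQLFTest) in R 4.3.3 over all genes, with Benjamini-Hochberg adjustment at 0.05. Limma 3.58.1 with a trend, run on log2 CPM (prior count 2), gave standard errors and 95% intervals. DESeq2 1.42.0 was an alternative. FPKM was compared without a test, and its alternatives used log2(FPKM + 1) and log2(FPKM + 0.1). Further alternatives were other scaling, filters and tools, a block, the Sep or Oct ending and leaving out each library; DESeq2 with the block and on the Oct libraries were added after the data were seen. The tests were first tried on simulated data.

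No library was a copy of another: within groups, chi-square divided by its degrees of freedom was 32.7 or more. Low counts limit Ppara and Pdk4. The members and lists were chosen with earlier results of these data known. Named were all members, the 2 genes of each list with the highest mean FPKM any pathway gene with an adjusted p under 0.05 (none), and, over all lists, in each direction the 3 genes of lowest p; Pdk1, Pparg, Ppargc1a, Acacb, Fabp4, Slc27a1 and Eci2, outside this rule, describe a family or a count. Some genes that the rule names are not reported here. Promoter windows are RefSeq's (GRCr8), and no other coordinates are given because the builds differ.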

Additional observations from a re-analysis of the deposited data

How the results depend on the processing

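The count of members called was 0 at a threshold of 0.05 under every alternative run, in edgeR, DESeq2 and limma, and 0 at 0.01 and 0.1 in the main edgeR test, and among 233 values of the 9 tested members 227 kept their direction and their side of the threshold. The smallest adjusted p of a member was 0.0911, for Acadl in DESeq2 without resveratrol 2, which a threshold of 0.1 would call. Hadhb changed sign without resveratrol 3 (0.046 in edgeR, with -0.11 the lowest on leaving out a library, and 0.048 in DESeq2), and in DESeq2 without control 1 (0.0037) or on the Oct libraries (0.0012); Ppara did so without control 2 (0.023 in edgeR, -0.42 the lowest, and 0.037 in DESeq2). Both lie near 0 or have few counts, and the cause was not tested.

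Over all genes the count called was 0 in edgeR's quasi-likelihood test and 1007 in DESeq2, 829 in edgeR's likelihood ratio test, 672 in DESeq2 with the replicate block and 404 in DESeq2 on the Oct libraries. Leaving out a library gave 0 to 21 in edgeR, with 1 without resveratrol 2 and 21 without control 3, and in DESeq2 530, 642 and 826 without resveratrol 1, 2 and 3 and 623, 390 and 1041 without control 1, 2 and 3. Of the pathway genes 0 were called in the main test, 8 in DESeq2, 10 in the likelihood ratio test, 7 in DESeq2 with the block, 4 in DESeq2 on the Oct libraries and in DESeq2 4, 5 and 7 without resveratrol 1, 2 and 3 and 6, 3 and 4 without control 1, 2 and 3; edgeR on leaving out a library called 0.

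Deviations of log2 CPM from the group mean did not go together in same-numbered libraries (correlations of -0.00442, -0.0123 and -0.0225). No correlation of these deviations between libraries of different groups was over 0.1. With the replicate number as a block edgeR called 0 genes, 0 members and 0 pathway genes.

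Named pathway genes with fold changes near 0 changed sign in some fits. Etfa was at 0.0077 with DESeq2 size factors, 1.6e-05 with no filter, 0.011 in DESeq2, 0.0054 on either FPKM scale, 0.0049 in DESeq2 with the block -0.083 to 0.10 in edgeR on leaving out a library, and in DESeq2 0.10 without resveratrol 3 and 0.036 and 0.030 without control 1 and 3. Mlycd was at -0.023 with upper quartile scaling, -0.0060 with the stricter filter, -0.0041 in voom, -0.0031 with the replicate block and with the Sep or Oct covariate, -0.091 in edgeR and -0.078 in DESeq2 on the Oct libraries, and -0.082 in edgeR (0.055 the highest on leaving out a library) and -0.068 in DESeq2 without resveratrol 1. Pdha1 reached 0.0088 in edgeR (-0.044 the lowest) and 0.010 in DESeq2 without resveratrol 3 and 9.8e-05 in DESeq2 without resveratrol 2, and Pdk2 -0.059 in edgeR (0.16 the highest) and -0.045 in DESeq2 without resveratrol 1. No scaling moved the median of all genes by over 0.1.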
